A study of Caenorhabditis elegans with 12 samples.

Results

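The genes that build fatty acids and place double bonds in them were examined in starved first-stage (L1) larvae of Caenorhabditis elegans. The group holds 9 genes of the 44968 gene entries counted: pod-2, fasn-1 and the desaturases fat-1 to fat-7. They were taken by symbol from the authors' deposited table of daf-2 RNAi against empty vector, which lists 8 of them, and fat-7 was found by its symbol in the Ensembl annotation. All animals carried hrde-1(tm1200), a mutation in a nuclear Argonaute needed for inherited silencing. Parents ate HT115 bacteria for 72 h that carried daf-2 RNAi, pitr-1 RNAi or empty vector; daf-2 encodes the insulin/IGF receptor and pitr-1 a predicted phosphate transporter. Their embryos were released by bleaching, hatched without food and were frozen about 24 h later, so the progeny themselves were never fed RNAi bacteria. Polyadenylated RNA of whole larvae was sequenced in 12 libraries, 4 for each parental RNAi, called biological replicates in the labels, and the numbers below are reads counted per gene by the authors.

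In C. elegans, acetyl-CoA carboxylase and fatty acid synthase make saturated palmitic acid from acetyl-CoA. Desaturases then insert double bonds one after another, first giving monounsaturated palmitoleic and oleic acid, and then the polyunsaturated acids that this animal, unlike mammals, can make from oleic acid alone. The products go into membrane phospholipids and into stored triglyceride, mostly in the intestine and epidermis, and an arrested L1 larva lives on such stores laid down in the embryo.

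The gene counts of a library summed to 9640590 to 10502750 with daf-2 RNAi, 5907286 to 10345381 with pitr-1 RNAi and 7737184 to 11490429 with empty vector. pitr-1 RNAi replicate 1 was the shallowest, with 39.8% of its reads not aligned. Ribosomal RNA took 17.9% to 33.7%, 15.2% to 39.6% and 25% to 44.8% of the gene counts in daf-2 RNAi, pitr-1 RNAi and empty vector libraries. The RNAi targets did not stand apart in the progeny: daf-2 itself was at 21.9, 61.1, 43.5 and 63.5 CPM in the 4 daf-2 RNAi libraries and at 85.3, 67.2, 46.6 and 62.2 CPM in the empty vector libraries. pitr-1 was at 322, 178, 179 and 168 CPM in the pitr-1 RNAi libraries and at 248, 181, 209.8 and 230.5 CPM in the empty vector libraries. hrde-1 averaged 3.46 ± 1.37 CPM after daf-2 RNAi, 3.37 ± 0.877 CPM after pitr-1 RNAi and 3.76 ± 0.947 CPM after empty vector (SD, n = 4 each). CPM is the usual scaling of a count to library size, here the size adjusted by edgeR's TMM method, and replicates are always given in the order 1 to 4.

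fat-7, a stearoyl-CoA desaturase and close paralog of fat-6, was listed at 0 in all 12 libraries. Of 19268 protein-coding entries, 148 (0.768%) were at 0 in every library. Among them were genes that every cell uses, such as the ribosomal protein gene rpl-16 and the pyruvate dehydrogenase subunit gene pdha-1. The 0 of fat-7 therefore gives no level and no fold change. The labels do not tell how reads shared by fat-6 and fat-7 were counted, and the fat-6 values carry that uncertainty. The other 8 genes passed the filter on low counts and were among the 14664 genes tested.

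Starved larvae of all groups held much desaturase RNA. The values are of whole larvae, in which fewer cells of a type and less RNA per cell cannot be told apart. Per kilobase of merged exon, fat-6, which converts stearic to oleic acid, stood at 679 ± 129 CPM per kb after daf-2 RNAi, 732 ± 134 after pitr-1 RNAi and 822 ± 189 after empty vector (SD, n = 4 each). fat-2, which converts oleic to linoleic acid, stood at 569.6 ± 28.2, 514 ± 93.1 and 633 ± 34.2 CPM per kb in the same groups. In empty vector progeny these were the 151st and 193rd highest of 14473 tested genes with an exon length.

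The desaturases of polyunsaturated acids were lower on the per-kilobase scale. fat-4 averaged 241 ± 53.5, the omega-3 desaturase gene fat-1 186 ± 38.6, and fat-3 94.1 ± 13.8 CPM per kb over all 12 libraries (SD). The enzymes that begin the pathway were lower again on that scale. pod-2, the acetyl-CoA carboxylase, was at 23.3 ± 5.76 and fasn-1, the fatty acid synthase, at 13.9 ± 3.79 CPM per kb over the same libraries. In CPM, without division by exon length (6.855 and 8.451 kb, against 1.492 kb for fat-3), pod-2 averaged 159.9, fasn-1 117.7 and fat-3 140.5. fat-5, which desaturates palmitic acid, had 2.595 ± 1.42 CPM per kb, from 8 to 61 reads per library.

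The order of levels per kilobase was the same in every library for 5 of its 7 neighbouring pairs. fat-6 was above fat-2 in 10 of 12 libraries, with a ratio of 0.949 to 1.75, and pod-2 was above fasn-1 in 10 of 12, with a ratio of 0.774 to 2.95. fat-4 was above fat-1 in 12 of 12 libraries but by as little as 1.06-fold. Between fat-6 and fat-5, which act on substrates of different length, the per-kilobase ratio ran from 144 to 904.

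**Figure D1:**
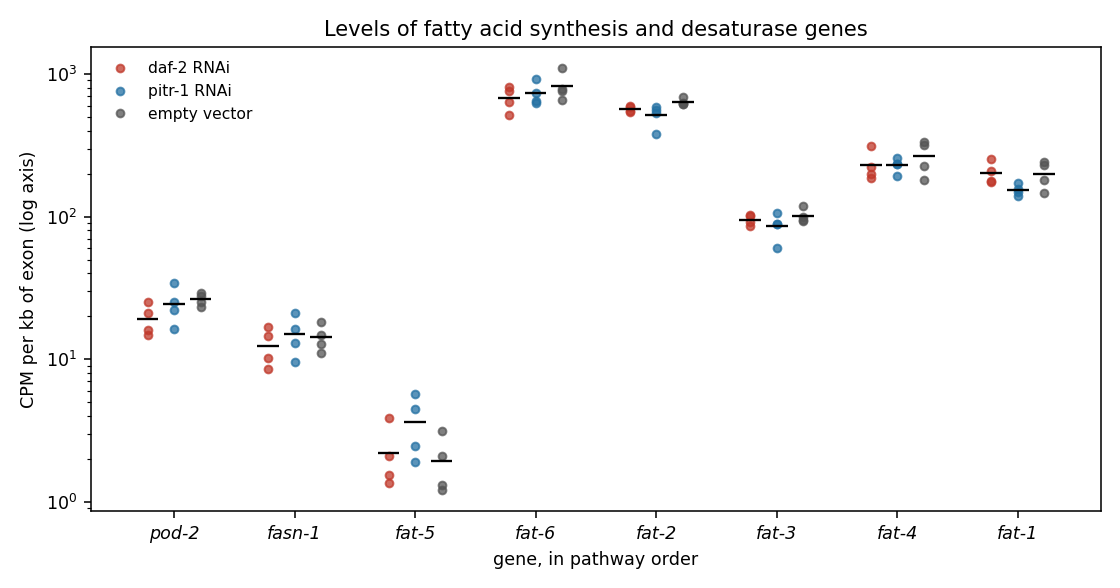
Level of each tested gene in CPM per kb of exon on a log axis, 1 point per library and a bar at the group mean, with daf-2 RNAi, pitr-1 RNAi and empty vector side by side; fat-7, listed at 0, is not drawn. fat-6 and fat-2 sit highest and fat-5 lowest in every group, and the groups of each gene lie close together next to the distances between genes.

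None of the 8 tested genes passed the test in any comparison of parental RNAi, and most point estimates were small. The test was edgeR's quasi-likelihood test on all 12 libraries, with p-values adjusted by Benjamini-Hochberg over all genes and a call at an adjusted p under 0.05. In daf-2 RNAi against empty vector 5 genes of all tested (0.0341%) were called, in pitr-1 RNAi against empty vector 1 (0.00682%) and in daf-2 RNAi against pitr-1 RNAi 2 (0.0136%). No member had an unadjusted p under 0.05 in these fits, and DESeq2 called 0 members as well. Since so few genes were called at all, 0 of 8 says little about these genes in particular.

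The libraries of the same replicate number resembled each other across groups, so the test was repeated with the replicate number as a block. It then called 46 genes (0.314%) in daf-2 RNAi against empty vector, 1 (0.00682%) in pitr-1 RNAi against empty vector and 22 (0.150%) in daf-2 RNAi against pitr-1 RNAi. Again 0 members were called, with 1, 3 and 1 of them at an unadjusted p under 0.05 in the 3 comparisons. Both RNAi groups were set against the same 4 empty vector libraries, so the first and second comparison are not independent.

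The log2 fold changes of the members lay below 0 for 6 of 8 genes in daf-2 RNAi against empty vector, with a median of -0.17. They lay below 0 for 6 of 8 in pitr-1 RNAi against empty vector, with a median of -0.18, and for 4 of 8 in daf-2 RNAi against pitr-1 RNAi, with a median of -0.05. Over all tested genes 49.3%, 46.5% and 52.7% lay below 0, and the medians were 0.005, 0.022 and -0.016. These signs depended on the scaling: on total gene counts only pod-2 (-0.20) and fat-6 (-0.00) were below 0 in daf-2 RNAi and only fat-1 (-0.05) in pitr-1 RNAi against empty vector, while the median of all tested genes was itself at 0.25 and 0.27. Set against those medians, 6 of the members lay below for daf-2 RNAi, and 6 for pitr-1 RNAi.

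**Figure D2:**
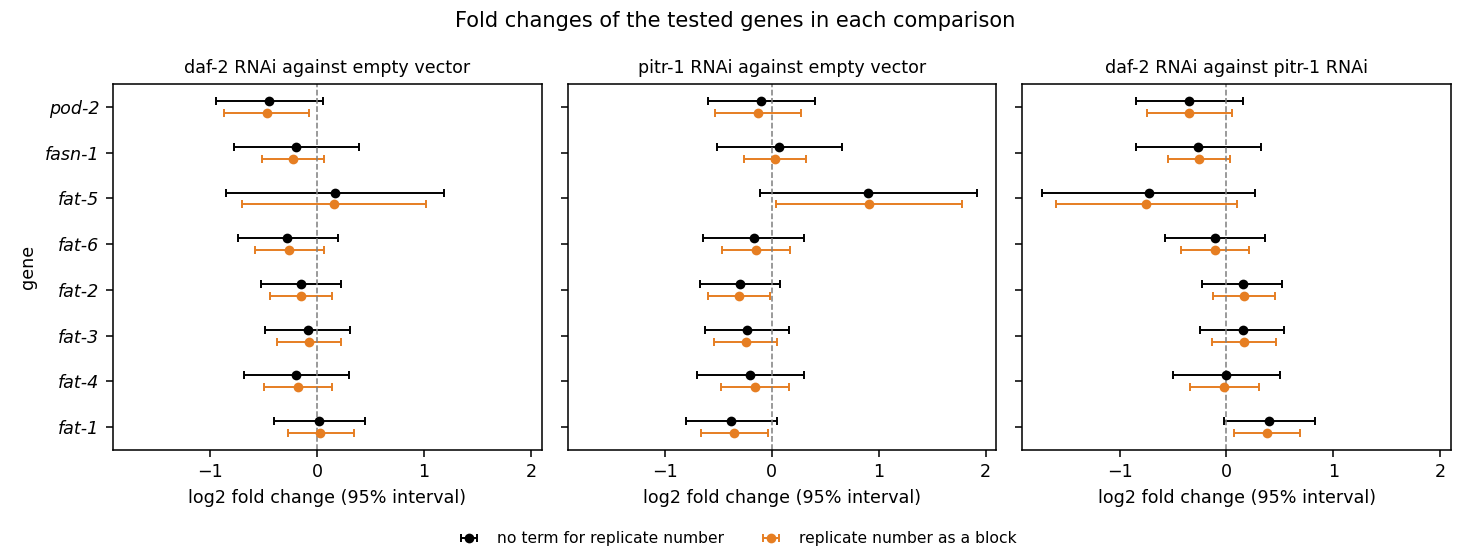
log2 fold change of each tested gene in the 3 comparisons (points, with 95% intervals), from the edgeR fit without a term for the replicate number (black) and with it as a block (orange); positive values are higher in the first-named group. All black intervals include 0, and with the block those of pod-2 in daf-2 RNAi against empty vector, of fat-1, fat-2 and fat-5 in pitr-1 RNAi against empty vector and of fat-1 in daf-2 RNAi against pitr-1 RNAi do not, although no adjusted p passed.

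pod-2 had the largest difference from empty vector among the members in daf-2 RNAi progeny. It was at 109, 144, 101 and 173 CPM in the daf-2 RNAi libraries, at 235, 174, 112 and 151 CPM in the pitr-1 RNAi libraries and at 159, 189, 173 and 199 CPM in the empty vector libraries. Each daf-2 RNAi library was below the empty vector library of its number, though the groups overlap because daf-2 RNAi replicate 4 lay above empty vector replicate 1. The log2 fold change was -0.45 ± 0.24 (SE; 95% interval -0.95 to 0.05; edgeR adjusted p = 1).

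With the replicate block the pod-2 value was -0.47 ± 0.18, with an unadjusted p of 0.0223 and an edgeR adjusted p of 0.497, so it did not pass the correction. The authors' deposited table gave -0.48 with a false discovery rate of 0.322. In pitr-1 RNAi against empty vector the pod-2 log2 fold change was -0.10 ± 0.23 (SE), and it turned to 0.05 without pitr-1 RNAi replicate 3. pod-2 shares 139 bases of exon on the opposite strand with the gene W09B6.4, and the library kit does not mark strand, so reads in that stretch cannot be told apart.

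fasn-1, the next enzyme, was at 85.9, 122, 141.5 and 72.2 CPM in the daf-2 RNAi libraries, at 111, 137, 178.5 and 81.0 CPM in the pitr-1 RNAi libraries and at 109, 155, 126 and 93.3 CPM in the empty vector libraries. The groups overlap broadly, and within each group replicate 4 was the lowest. Against empty vector its log2 fold change was -0.20 ± 0.27 for daf-2 RNAi and 0.07 ± 0.27 for pitr-1 RNAi (SE; edgeR adjusted p = 1 for both). The sign for pitr-1 RNAi turned without pitr-1 RNAi replicate 3 (-0.14) or empty vector replicate 4 (-0.03). The value for daf-2 RNAi ran from -0.37 without daf-2 RNAi replicate 3 to -0.05 without empty vector replicate 2.

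Among the desaturases of saturated fatty acids, fat-5 had wider intervals than fat-6 in all 3 comparisons and the larger point estimates in those with pitr-1 RNAi. Its raw counts were 15, 46, 17 and 27 after daf-2 RNAi, 8, 57, 61 and 37 after pitr-1 RNAi and 8, 38, 11 and 28 after empty vector. On the CPM scale these were 1.49, 4.25, 1.715 and 2.32 after daf-2 RNAi, 2.09, 4.96, 6.26 and 2.73 after pitr-1 RNAi, and 1.46, 3.44, 1.33 and 2.32 after empty vector. All groups overlap, and each pitr-1 RNAi library was above the empty vector library of its number.

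The fat-5 log2 fold change of pitr-1 RNAi against empty vector was 0.90 ± 0.47 (SE; 95% interval -0.11 to 1.92; edgeR adjusted p = 1). The pair of replicate 3 differed by 2.07 on the log2 scale and the other pairs by 0.22 to 0.50, and without pitr-1 RNAi replicate 3 the fold change was 0.61. In daf-2 RNAi against empty vector the value was 0.17 ± 0.48 (SE), and -0.23 without daf-2 RNAi replicate 2. fat-5 overlaps the opposite-strand gene twk-42 by 28 bases.

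fat-6 was at 941, 742, 879.8 and 603 CPM in the daf-2 RNAi libraries, at 733, 754, 1075 and 851 CPM in the pitr-1 RNAi libraries and at 914.5, 763, 1274 and 882 CPM in the empty vector libraries. Empty vector replicate 3 was the highest of the 12, and the groups overlap. The log2 fold changes were -0.28 ± 0.22 (95% interval -0.74 to 0.19) for daf-2 RNAi and -0.17 ± 0.22 (95% interval -0.64 to 0.30) for pitr-1 RNAi against empty vector (SE; edgeR adjusted p = 1 for both). Without empty vector replicate 3 they were -0.11 and -0.00.

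fat-2 varied least of the members, and either RNAi group lay apart from empty vector. It was at 739, 751, 686 and 683 CPM in the daf-2 RNAi libraries, at 476, 739.8, 668 and 698 CPM in the pitr-1 RNAi libraries and at 768, 858, 783 and 769.6 CPM in the empty vector libraries. Every library of either RNAi group was below every empty vector library, yet the distances were small: the log2 fold changes were -0.15 ± 0.17 for daf-2 RNAi and -0.30 ± 0.17 for pitr-1 RNAi against empty vector (SE; edgeR adjusted p = 1 for both).

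Without pitr-1 RNAi replicate 1, the shallowest library, the fat-2 value for pitr-1 RNAi was -0.17. With the block it was -0.31 ± 0.14, with an unadjusted p of 0.0404 and an edgeR adjusted p of 0.999. With TMM, fat-2 was the 1 member without overlap in each comparison with empty vector, where 2.62% of all tested genes had none for daf-2 RNAi and 1.35% for pitr-1 RNAi.

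The separation of fat-2 depended on the scaling. It held with TMM and with RLE size factors, and not when counts were divided by the total gene counts, with or without ribosomal RNA. On total gene counts fat-2 averaged 769.5 CPM in daf-2 RNAi, 726 in pitr-1 RNAi and 725 in empty vector libraries, and without ribosomal RNA in the totals 1013, 936 and 1087. The log2 ratio to empty vector on total gene counts was 0.09 for daf-2 RNAi and 0.00 for pitr-1 RNAi, so the direction was lost there, though both values were below the all-gene medians of that scaling given above.

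fat-3, which makes gamma-linolenic acid from linoleic acid, was at 149.9, 137, 128 and 154 CPM in the daf-2 RNAi libraries, at 90.6, 133, 132 and 158 CPM in the pitr-1 RNAi libraries and at 140.1, 140, 148 and 176 CPM in the empty vector libraries. pitr-1 RNAi replicate 1 was lowest and the groups overlap. The log2 fold changes were -0.09 ± 0.19 for daf-2 RNAi and -0.23 ± 0.19 for pitr-1 RNAi against empty vector (SE; edgeR adjusted p = 1 for both), and that of daf-2 RNAi was 0.00 without empty vector replicate 4. Without pitr-1 RNAi replicate 1, the shallowest library, that of pitr-1 RNAi was -0.09.

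fat-4, which completes arachidonic and eicosapentaenoic acid, was at 483.5, 308, 342 and 285 CPM in the daf-2 RNAi libraries, at 362, 296, 399 and 359.5 CPM in the pitr-1 RNAi libraries and at 486, 277.5, 515 and 347 CPM in the empty vector libraries. The groups overlap, and replicate 2 was the lowest or next to lowest of each. The log2 fold change was -0.20 ± 0.23 for either RNAi group against empty vector (SE; 95% intervals -0.69 to 0.30 and -0.70 to 0.30; edgeR adjusted p = 1 for both). Leaving out 1 library gave -0.38 (without daf-2 RNAi replicate 1) to -0.06 (without empty vector replicate 3) for daf-2 RNAi. For pitr-1 RNAi it gave -0.35 (without empty vector replicate 2) to -0.07 (without empty vector replicate 3).

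fat-1, which turns omega-6 into omega-3 fatty acids, was the 1 member whose daf-2 RNAi and pitr-1 RNAi values did not overlap. It was at 358, 251, 294 and 247 CPM in the daf-2 RNAi libraries, at 197, 211, 244 and 219.8 CPM in the pitr-1 RNAi libraries and at 328, 208, 339 and 257 CPM in the empty vector libraries. With TMM, empty vector values spread over both ranges. Of all tested genes, 2.05% had no overlap between daf-2 RNAi and pitr-1 RNAi; for fat-1 this held with TMM and RLE size factors and not with total gene counts, with or without ribosomal RNA. On total gene counts with ribosomal RNA, fat-1 was instead without overlap between daf-2 RNAi and empty vector, with means of 306.8 and 246.7 CPM and a log2 ratio of 0.31, against the all-gene median of 0.25.

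The fat-1 log2 fold change of daf-2 RNAi against pitr-1 RNAi was 0.40 ± 0.20 (SE; 95% interval -0.02 to 0.83; edgeR adjusted p = 1), higher in 4 of 4 pairs. With the block it was 0.38 ± 0.14, with an unadjusted p of 0.0188 and an edgeR adjusted p of 0.786. Against empty vector the value was -0.38 ± 0.20 for pitr-1 RNAi and 0.02 ± 0.20 for daf-2 RNAi (SE; edgeR adjusted p = 1 for both). For daf-2 RNAi it was -0.10 without daf-2 RNAi replicate 1 or without empty vector replicate 2, and -0.01 without empty vector replicate 4.

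**Figure D3:**
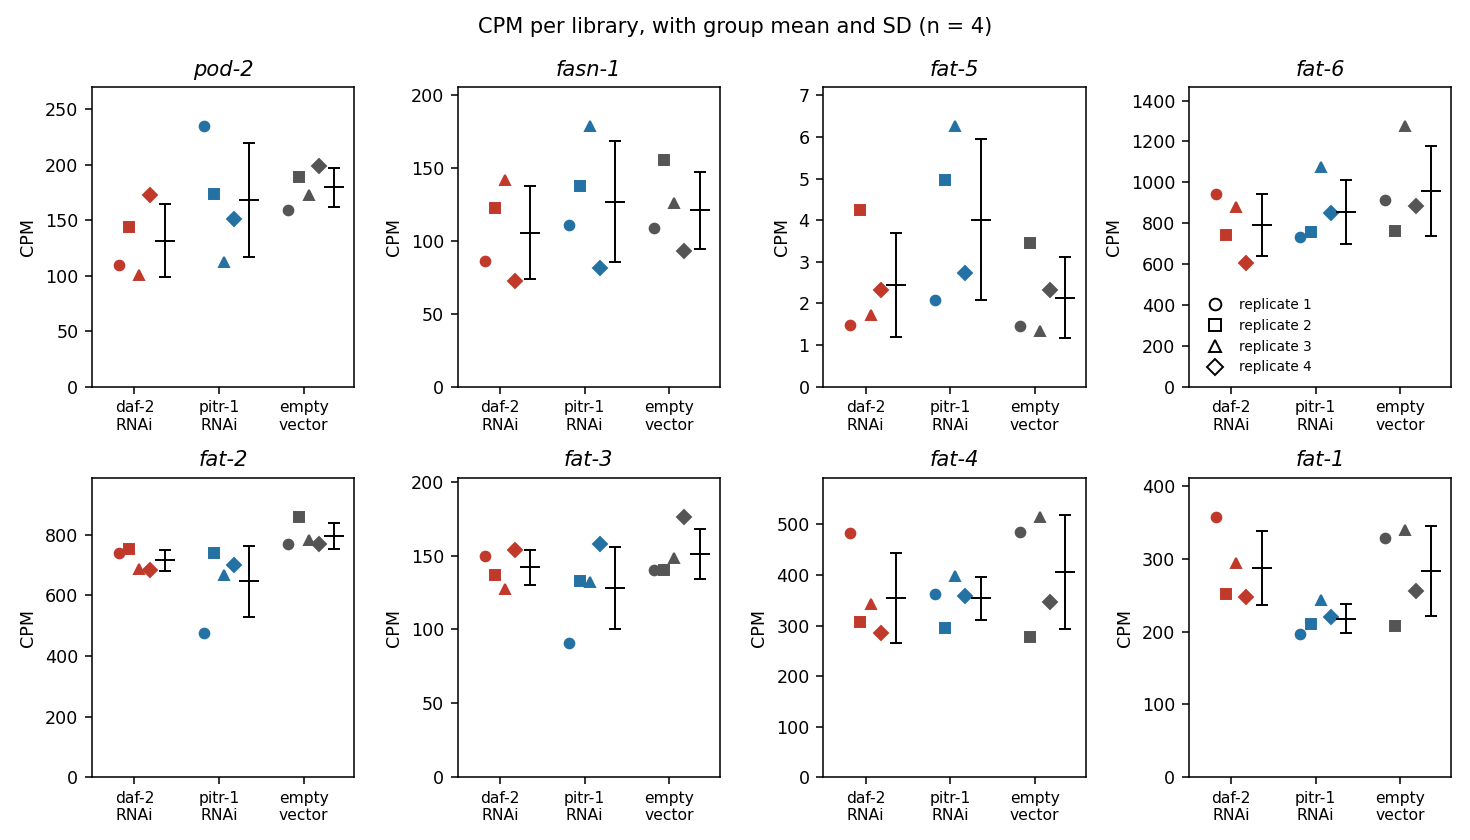
CPM of each tested gene by library, with daf-2 RNAi, pitr-1 RNAi and empty vector from left to right, a symbol per replicate number, and the group mean with its SD (n = 4) beside the points; each vertical axis starts at 0. The fat-2 points of empty vector, 768 to 858 CPM, lie above all others in that panel, and pitr-1 RNAi replicate 1 lies lowest of all libraries for fat-1, fat-2 and fat-3 and highest for pod-2.

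Between the RNAi groups the other intervals also included 0. Values of daf-2 RNAi against pitr-1 RNAi were -0.35 ± 0.24 for pod-2, -0.27 ± 0.27 for fasn-1, -0.73 ± 0.47 for fat-5 and -0.11 ± 0.22 for fat-6 (log2 fold change, SE; edgeR adjusted p = 1 for each). They were 0.15 ± 0.17 for fat-2, 0.15 ± 0.19 for fat-3 and 0.00 ± 0.23 for fat-4. Without pitr-1 RNAi replicate 3 the fasn-1 value was -0.05 and the fat-5 value -0.44, and without pitr-1 RNAi replicate 1 the pod-2 value was -0.15, the fat-2 value 0.02 and the fat-3 value 0.01. fat-6 turned to 0.03 without pitr-1 RNAi replicate 3 and 0.00 without daf-2 RNAi replicate 4, and fat-4 to -0.18 without daf-2 RNAi replicate 1 and -0.07 without pitr-1 RNAi replicate 2.

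For 5 of the 8 genes the replicate number took more of the variance than the parental RNAi. With 4 numbers and 3 RNAi groups, the number takes the larger share on average even where neither matters. The number took a median of 49% of the log2 CPM variance of all tested genes and the parental RNAi 9.73%, and 3901 genes (26.6%) differed between the 4 numbers in edgeR's test with the RNAi group in the model; without daf-2 RNAi replicate 4 the count was 2580. Of the members fasn-1 was called, 1 of 8, which is below that share.

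fasn-1 averaged 102 CPM in the 3 libraries of replicate 1, 138 in those of replicate 2, 149 in those of replicate 3 and 82.2 in those of replicate 4. The number took 80.4% of its variance, and the edgeR adjusted p was 0.00355. All 3 libraries of replicate 4 lay below all libraries of replicates 2 and 3. fat-4 and fat-6 followed with 64.3% and 53.8% of their variance and edgeR adjusted p of 0.0521 and 0.108, which passed in other settings. Their pattern differed from that of fasn-1, with higher means in replicates 1 and 3. Over replicates 1 to 4, fat-4 averaged 444, 294, 418.5 and 331 CPM and fat-6 863, 753, 1076 and 779 CPM. The labels number the replicates and do not say what a number shares. Summed markers of body wall muscle moved with the number as well: they stood at 2302 to 2917 CPM in the libraries of replicates 1 and 3 and at 4209 CPM or more in those of replicates 2 and 4, and 7 of 7 tested were called. Their part in the values of fasn-1, fat-4 and fat-6 was not tested.

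The parental RNAi took the larger share for the other 3 genes, with 42.2% against 23.4% for the number in fat-2, 39.8% against 33.3% in fat-1 and 31.7% against 27.2% in pod-2. These shares describe 12 libraries and were not tested against each other. The spread over the 12 libraries, as the SD of log2 CPM, was 0.21 for fat-2, 0.23 for fat-3, 0.28 for fat-6, 0.29 for fat-1, 0.31 for fat-4, 0.37 for pod-2, 0.40 for fasn-1 and 0.68 for fat-5. The median of all tested genes was 0.48.

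The balance between the synthesis enzymes shifted between libraries. The ratio of fasn-1 to pod-2 per kilobase was 0.637, 0.690, 1.14 and 0.339 in the daf-2 RNAi libraries, 0.383, 0.641, 1.29 and 0.434 in the pitr-1 RNAi libraries and 0.555, 0.666, 0.591 and 0.381 in the empty vector libraries. It was above 1 only in replicate 3 of both RNAi groups, where fasn-1 was high and pod-2 at its lowest.

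**Figure D4:**
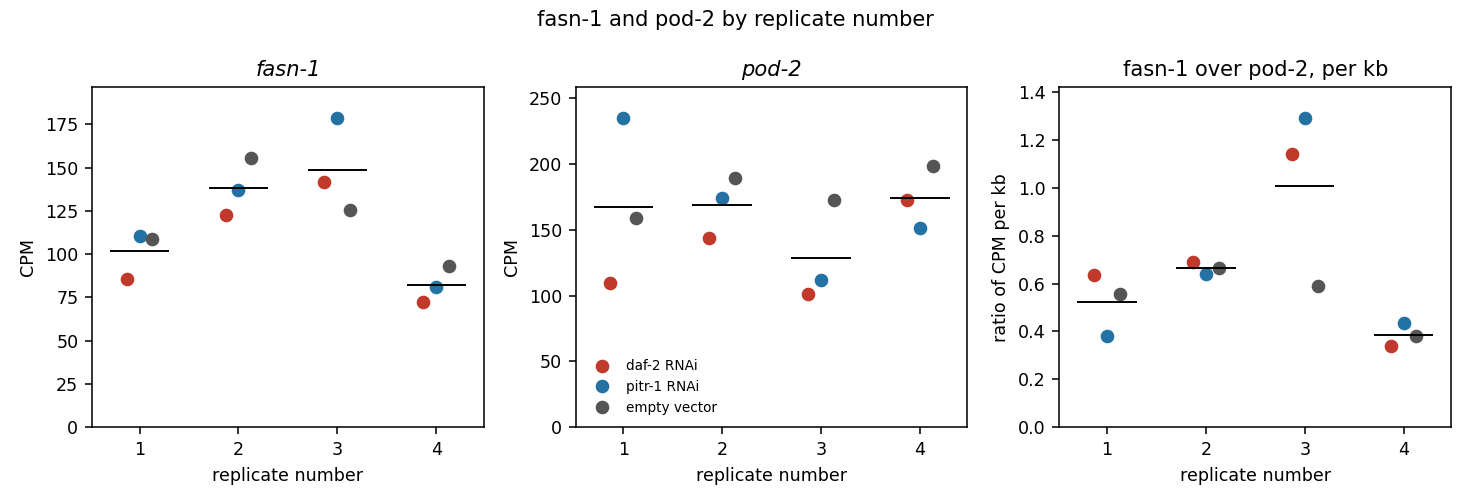
fasn-1 and pod-2 in CPM and their ratio per kilobase, by replicate number, with 1 point per library coloured by parental RNAi and a bar at the mean of the 3 libraries of a number. Replicate 4 is lowest for fasn-1 in every group, and the ratio exceeds 1 in daf-2 RNAi and pitr-1 RNAi replicate 3, at 1.14 and 1.29, but not in empty vector replicate 3, at 0.591.

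Transcripts of the germline and of maternal stores also varied between libraries. They were high in replicate 3 of both RNAi groups and in daf-2 RNAi replicate 2, where the ratio of fasn-1 to pod-2 was 0.690. The summed level of 19 such markers was 86.3, 336, 287 and 98.55 CPM in the daf-2 RNAi libraries, 113, 158, 354 and 90.8 CPM in the pitr-1 RNAi libraries and 87.1, 132, 59.7 and 93.1 CPM in the empty vector libraries, with no marker at 0 in any library. Of these markers 18 of 19 lay above 0 in each comparison with empty vector, with medians of 1.38 for daf-2 RNAi and 1.12 for pitr-1 RNAi on the log2 scale and 0 called. Their part in the values of fasn-1, pod-2 and fat-5 was not tested. Log2 fold changes were also taken without the 3 libraries of highest pos-1, a maternal transcript (daf-2 RNAi replicates 2 and 3, pitr-1 RNAi replicate 3). That left replicates 1 and 4 of daf-2 RNAi against all empty vector libraries, in a fit without the replicate block. In daf-2 RNAi against empty vector fasn-1 was then at -0.608, against -0.196 with all libraries, pod-2 at -0.35 and fat-5 at -0.183. The fasn-1 pairs of replicates 1 and 4 differed by -0.34 and -0.37. The part of the unequal replicate numbers in these values was not tested. In pitr-1 RNAi against empty vector fasn-1 was at -0.146, pod-2 at 0.045 and fat-5 at 0.60.

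Markers of the intestine, where much fat is made, were on the lower side as well. Of 12 markers, 11 lay below 0 in daf-2 RNAi against empty vector (median -0.19) and 10 in pitr-1 RNAi against empty vector (median -0.15), with 0 called. With the replicate block 2 of them fell in daf-2 RNAi: the protease gene cpr-1, at -1.33 ± 0.21 (SE; edgeR adjusted p = 0.0172), and the peptide transporter gene pept-1, at -0.75 ± 0.14 (edgeR adjusted p = 0.0394). Their summed level ran from 2467 to 4983 CPM in daf-2 RNAi, 3006 to 3795 in pitr-1 RNAi and 3953 to 4492 in empty vector libraries, with no marker at 0. The part of intestinal RNA in the lower fat-2 values was not tested.

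For 9 tested of 10 epidermal markers the medians were 0.06 for daf-2 RNAi and 0.18 for pitr-1 RNAi against empty vector, with 0 called. Summed epidermal markers stood at 143 to 175 CPM in daf-2 RNAi, 156 to 179 in pitr-1 RNAi and 127 to 165 in empty vector libraries. Replicates 1 and 3 of daf-2 RNAi and replicate 1 of empty vector each had 1 of the 10 at 0. Of 8 muscle markers hlh-1 was listed at 0 in every library, and of 9 neuronal markers none was.

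In the Ensembl annotation fat-1 lies next to fat-2 and fat-3 next to fat-4, both pairs on chromosome IV and on the same strand with 0 protein-coding genes between them. The likeness of patterns was measured as the root mean square difference of centred log2 CPM over the 12 libraries, where smaller is more alike. It was 0.276 for fat-1 and fat-2 and 0.359 for fat-3 and fat-4, while the closest members were fat-2 and fat-3 at 0.145 and fat-4 and fat-6 at 0.179. All pairs among fat-1, fat-2, fat-3, fat-4 and fat-6, which lie on chromosome IV, were at 0.145 to 0.359. Every pair with pod-2 (chromosome II), fasn-1 (chromosome I) or fat-5 (chromosome V) was at 0.382 to 0.861. The genes on chromosome IV are also those of the highest levels per kilobase and of the smallest spread over the libraries. Their SD of log2 CPM was 0.21 to 0.31, against 0.37 for pod-2, 0.40 for fasn-1 and 0.68 for fat-5. The measure is not scaled to spread and grows with it. Position, level and spread therefore cannot be told apart here.

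Among 9891 other genes of at least 5 CPM, the closest to fat-1 were the innexin gene inx-16 at 0.099 and dph-1 at 0.111. Those closest to fat-2 were arp-11 at 0.096 and prdh-1 at 0.099, to fat-3 ZK1067.4 at 0.087 and K12H4.7 at 0.095, to fat-4 the glutamate transporter gene glt-3 at 0.087 and K11D9.3 at 0.094, and to fat-6 C34D1.4 at 0.115 and pat-6 at 0.132. The synthesis genes, which varied more over the libraries, had more distant neighbours on this unscaled measure. pod-2 was closest to T07A9.14 at 0.164 and to the autophagy kinase gene unc-51 at 0.171, and fasn-1 to the glucuronosyltransferase gene ugt-4 at 0.205 and Y46G5A.18 at 0.223. fat-5 was closest to chtb-1 at 0.331 and the germline helicase gene glh-3 at 0.353. These values describe 12 libraries that share replicate numbers.

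Of the genes that regulate desaturases and membrane fluidity, such as sbp-1, the SREBP of this animal, and the nuclear receptor gene nhr-49, 0 of 10 were called in any comparison. In daf-2 RNAi against empty vector 7 of 10 lay below 0 (median -0.12), in pitr-1 RNAi against empty vector 6 (median -0.02), and in daf-2 RNAi against pitr-1 RNAi 6 (median -0.10). lpin-1, which encodes lipin, a phosphatidic acid phosphatase, was at 276, 278, 245 and 316 CPM in daf-2 RNAi libraries and at 324, 340.4, 349 and 371 CPM in empty vector libraries, without overlap. With TMM, 2.62% of all tested genes had no overlap between daf-2 RNAi and empty vector, and other scalings were not examined for lpin-1. Its log2 fold change was -0.31 ± 0.15 (SE; edgeR adjusted p = 1). Those of scp-1, the SREBP cleavage activating protein gene, and of iglr-2, a membrane fluidity gene, were 0.32 ± 0.19 in that comparison and -0.26 ± 0.19 in daf-2 RNAi against pitr-1 RNAi (SE). In pitr-1 RNAi against empty vector scp-1 was at 0.15 ± 0.19 and lpin-1 at -0.12 ± 0.15, and lpin-1 was at -0.20 ± 0.15 between the RNAi groups.

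Of 12 genes of fatty acid elongation 10 were tested and 0 called; let-767 was listed at 0 in every library. Of those tested 8 lay below 0 in each comparison with empty vector, with medians of -0.15 for daf-2 RNAi and -0.20 for pitr-1 RNAi, and 5 lay below 0 between the RNAi groups (median 0.03). As for the other gene lists and the markers, these signs are with TMM, and other scalings were not examined. For the replicate number 6 of the 10 were called, against 26.6% of all tested genes. Lowest in p were -0.61 ± 0.38 for elo-8 and -0.83 ± 0.56 for elo-5, an elongase gene of branched-chain acids, in daf-2 RNAi, and -0.59 ± 0.57 for elo-4 and 0.26 ± 0.27 for elo-9 in pitr-1 RNAi (log2 fold change, SE; edgeR adjusted p = 1 for each). With the block elo-5 was at -0.99 ± 0.32 in daf-2 RNAi (edgeR adjusted p = 0.359). Between daf-2 RNAi and pitr-1 RNAi elo-5 was at -0.49 ± 0.56 and elo-8 at -0.33 ± 0.38.

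The list of precursors and cofactors held suppliers of acetyl-CoA, NADPH and electrons, and also bpl-1 and mlcd-1. Of its genes, 10 of 10 lay below 0 in daf-2 RNAi against empty vector (median -0.14). The count was 9 of 10 in pitr-1 RNAi against empty vector (median -0.10), and 6 of 10 between the RNAi groups (median -0.02), with 0 called in each. The ATP citrate lyase genes acly-2 and acly-1 were at -0.41 ± 0.29 and -0.28 ± 0.24 in daf-2 RNAi (log2, SE), and acly-2 and the cytochrome b5 gene cytb-5.2 were at -0.26 ± 0.29 and -0.22 ± 0.31 in pitr-1 RNAi. Between daf-2 RNAi and pitr-1 RNAi acly-1 was at -0.39 ± 0.24 and acly-2 at -0.15 ± 0.29.

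Of 11 genes of phosphatidylcholine and triglyceride synthesis 0 were called, and 5 lay below 0 for daf-2 RNAi and 9 for pitr-1 RNAi against empty vector (medians 0.04 and -0.08), and 5 between the RNAi groups (median 0.04). The diacylglycerol acyltransferase gene dgat-2 was at 4.18, 3.42, 6.05 and 4.46 CPM in daf-2 RNAi libraries, at 4.97, 9.31, 6.67 and 10.4 CPM in pitr-1 RNAi libraries and at 4.93, 8.42, 10.3 and 8.36 CPM in empty vector libraries. Its log2 fold change was -0.83 ± 0.31 in daf-2 RNAi against empty vector and -0.81 ± 0.31 in daf-2 RNAi against pitr-1 RNAi (SE; edgeR adjusted p = 1 for both, unadjusted p = 0.0195 and 0.0221). The groups overlap in both comparisons.

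pmt-1, a phosphoethanolamine methyltransferase gene, was at 1029, 1018, 1101 and 1034 CPM in daf-2 RNAi libraries and at 1640, 1151, 1668 and 1260 CPM in empty vector libraries, without overlap. Of all tested genes 2.62% had none in that comparison with TMM, and other scalings were not examined for pmt-1. The log2 fold change was -0.45 ± 0.18 (SE; unadjusted p = 0.0222, edgeR adjusted p = 1; with the block -0.44 ± 0.14 and an edgeR adjusted p of 0.318). In pitr-1 RNAi against empty vector pmt-1 was at -0.26 ± 0.18 and pcyt-1 at 0.24 ± 0.25, and between the RNAi groups cept-2 was at 0.42 ± 0.23 (SE).

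Of 9 fatty acid oxidation genes of the fasting response 7 were tested and 0 called, and 5 lay above 0 in each comparison with empty vector (medians 0.13 for daf-2 RNAi and 0.22 for pitr-1 RNAi) and 4 between the RNAi groups (median 0.02). Lowest in p were 0.58 ± 0.62 for hacd-1 and 0.76 ± 0.85 for cpt-5 in daf-2 RNAi, and 1.38 ± 0.86 for cpt-5 and 1.04 ± 0.70 for ech-1.1 in pitr-1 RNAi (log2 fold change, SE; edgeR adjusted p = 1 for each). Between daf-2 RNAi and pitr-1 RNAi ech-1.1 was at -1.06 ± 0.69 and ech-6 at 0.25 ± 0.19. cpt-5 and ech-1.1 stayed under 5 CPM in every library. hacd-1 was at 11.65, 1.94, 3.13 and 2.23 CPM in the daf-2 RNAi libraries and at 0.913, 2.63, 6.67 and 2.32 CPM in the empty vector libraries, so that it was higher with daf-2 RNAi in replicate 1 and lower in the other 3.

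In the authors' deposited tables, made with a batch correction, the 8 listed genes had log2 fold changes of -0.48 (pod-2) to 0.18 (fat-5) for daf-2 RNAi and -0.34 (fat-1) to 0.87 (fat-5) for pitr-1 RNAi over empty vector. The lowest false discovery rate among them was 0.322 in the table of daf-2 RNAi, for pod-2, and 0.999 in that of pitr-1 RNAi, so none passed 0.05 there.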

How the data were processed

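mRNA of 12 libraries was counted per gene by the authors with Bowtie 1.2.2 and HTSeq, per the submitters' processing notes; their build is not given in the sources used here. The deposited values are whole-number read counts for 44968 gene entries; 5 summary entries stayed out of all totals (no feature 1.71% to 4.6%, ambiguous 4.59% to 8.45%, not aligned 16.3% to 39.8% of reads). The authors also deposited log2 fold changes, F scores, p-values and false discovery rates for 12395 genes; per the notes in that workbook these came from edgeR with a batch correction. They entered no test. Names came from those tables (12395) and from Ensembl 115, WBcel235 (32167); 406 entries matched neither. Exon lengths are from that annotation, and no sequence is printed.

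Tests used edgeR 4.0.16 in R 4.3.3: TMM, filterByExpr (14664 genes), a robust quasi-likelihood fit over the 12 libraries, two-sided, adjusted p under 0.05. SE is the absolute log2 fold change over the square root of F; intervals use the 95% t quantile. DESeq2 1.42.0 was an alternative. The code was tested on simulated data. Deviations from group means of same-numbered libraries correlated at 0.137 to 0.505 for daf-2 RNAi with empty vector, 0.104 to 0.508 for pitr-1 RNAi with empty vector and 0.434 to 0.610 for both RNAi groups, all over 0.1, so the numbers pair the libraries by the data, not by the labels. The labels do not say whether replicates were separate cultures, so p-values measure the spread between these libraries. Members and lists were chosen with earlier results of these data known. Named were all members, from each list the 2 genes of lowest p per comparison and any called, and the 2 genes most like each member (centred log2 CPM, prior count 2, mean of at least 5 CPM); the named markers and the other genes listed at 0 were picked after seeing values. Sequence comparisons planned for the members were not made.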

Additional observations from a re-analysis of the deposited data

Results flagged for a closer look

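fat-2 in empty vector replicate 2, at 858 CPM, stood apart from the other empty vector libraries, which lay at 768, 769.6 and 783 CPM. Its gap to the nearest of them, as a share of the group's range, was above Dixon's critical value for 4 samples. It was the 1 case in the 24 groups of 4 libraries examined, and chance gives about 1 in 20. Without that library the fat-2 log2 fold change of daf-2 RNAi against empty vector was -0.11, and the remaining 3 empty vector libraries were still above all daf-2 RNAi and pitr-1 RNAi libraries.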

How the results depend on the processing

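No setting tried called a member in any comparison of parental RNAi. Genes called in daf-2 RNAi against empty vector numbered 46 with the replicate block, 50 with DESeq2, 176 with DESeq2 and the block and 13 with no low-count filter; in pitr-1 RNAi against empty vector 8 with DESeq2 and the block; in daf-2 RNAi against pitr-1 RNAi 22 with the replicate block, 22 with DESeq2, 86 with both, 6 with no filter and 0 with only the 8 libraries compared. Leaving out 1 library gave 0 to 3 (fewer than 5 without any of the 8), 0 to 1 and 0 to 2 genes in these comparisons. In 2 settings chosen after seeing the data, replicates 2 and 4 alone gave 15, 4 and 25, and leaving out the 3 libraries of highest pos-1 gave 0 in each. Members called for the replicate number were 3 with DESeq2 and with no filter (fasn-1, fat-4, fat-6), 2 with RLE size factors (fasn-1, fat-4), and 1 to 3 leaving out 1 library, always with fasn-1; the count of all genes was then 2580 (without daf-2 RNAi replicate 4) to 5735. Dividing by total gene counts scales all genes of a library alike, so it cannot change the order of member levels within a library.

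These log2 fold changes turned sign; the cause was not tested. fat-4 in daf-2 RNAi against pitr-1 RNAi was -0.018 with the replicate block, -0.011 with DESeq2 and with RLE, -0.030 with DESeq2 and the block, and -0.181 to 0.097 leaving out 1 library. With replicates 2 and 4 alone, pitr-1 RNAi against empty vector was -0.196 for fasn-1 and 0.064 for fat-4, and daf-2 RNAi against pitr-1 RNAi was -0.004 for fat-2, -0.000 for fat-3 and -0.146 for fat-4. Without the libraries of highest pos-1, only replicates 1 and 4 of daf-2 RNAi remained, and daf-2 RNAi against empty vector was 0.010 for fat-3 and -0.183 for fat-5. With the same libraries left out, pitr-1 RNAi against empty vector was 0.045 for pod-2 and -0.146 for fasn-1. Leaving out 1 library, daf-2 RNAi against empty vector spanned -0.100 to 0.124 for fat-1, -0.127 to 0.003 for fat-3 and -0.232 to 0.500 for fat-5; pitr-1 RNAi against empty vector spanned -0.143 to 0.234 for fasn-1 and -0.296 to 0.048 for pod-2; and daf-2 RNAi against pitr-1 RNAi spanned -0.200 to 0.027 for fat-6. The replicate block changed no other sign and no member's call. At 8 to 61 reads, fat-5 is limited by depth, and 4 libraries per group leave 95% intervals that allow the other members changes of up to 0.95 on the log2 scale.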
